A study of Mus musculus with 6 samples.

Results

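Cholesterol synthesis genes were followed through the developing mouse lung in 6 single-cell RNA-sequencing libraries. The set held 8 genes listed by name, namely Hmgcs1, Sqle, Idi1, Fdps, Fdft1, Lss, Cyp51 and Insig1. All 8, of 31053 features, were present in each count matrix. The study asked how the arterial endothelium marked by the chemokine gene Cxcl12 is built up during lung development, and what loss of Cxcl12 does to the lung. In 4 libraries, from lungs at embryonic day (E) 13.5, E15.5 and E18.5 and postnatal day (P) 8, cells were sorted before capture from mice of the genotype Cxcl12DsRed/+, in which a red fluorescent reporter replaces part of exon 1 of 1 Cxcl12 copy. The sort took cells positive for the reporter and for the endothelial protein CD31 and negative for EpCAM and CD45, and the protocol adds that CD31-negative, reporter-positive cells enriched for mesenchyme were also collected. The other 2 libraries came from E18.5 lungs without a reporter sort in their titles, 1 labelled as homozygous null (Cxcl12DsRed/DsRed) and 1 as heterozygous control (Cxcl12DsRed/+). By these labels all 6 libraries carried at least 1 reporter allele. Lungs of several animals were mixed in the sorted libraries, and animals cannot be told apart in the files.

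Each condition was 1 library, so differences have no replicate check and no test was run. Levels are summed unique molecular identifiers (UMIs, counted molecules) per 1000000 UMIs of the same cells (CPM), and the intervals in parentheses are exact 95% Poisson limits that cover counting error only. Differences are log2 ratios of CPM plus 0.5, with a counting interval from the exact binomial limits, and folds are the same ratios off the log scale. A difference is called past 1.5-fold only for genes averaging at least 10 CPM over both groups, and the share of all such genes past that fold in the same direction stands beside the first count. A lower summed level can mean fewer molecules per cell or fewer expressing cells. UMIs were counted at the 3′ ends of transcripts, so levels of different genes are not compared with each other.

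The targeted gene went against the labels of the whole lungs. Cxcl12 in endothelial cells stood at 579 CPM in the library labelled null and at 5.41 CPM in the library labelled control, and in mesenchymal cells at 45.4 and 0.276 CPM. The names of the deposited whole-lung files also give the opposite genotypes. The 2 libraries are therefore called the library labelled null and the library labelled control throughout. The libraries held 63746333 to 117522172 UMIs in 8845 to 13098 barcodes, of which 8268 to 12726 passed the cell filters. The whole lungs shared 140 barcode sequences, 1.58% of the smaller library, and every other pair shared at most 0.457%. Cells were classed by UMIs of marker genes. Endothelial cells, with at least 2 UMIs of Pecam1 plus Cdh5, numbered 173, 9019, 9042 and 8227 along the time course. Mesenchymal cells, with at least 5 UMIs of Col1a1 plus Col3a1, numbered 11266, 2060, 283 and 68, so that E13.5 was mostly mesenchymal and the later sorts mostly endothelial. Cells passing both gates were left out. The endothelial classes carried the summed level of 6 mesenchymal markers at 238, 40.0, 20.3 and 10.0 CPM in time order, against 4658 to 16984 CPM in the mesenchymal classes. A single endothelial cell held on average only 1.14 to 3.48 UMIs of all 8 genes together, which is why sums over cells are used.

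Cholesterol is built in the cell from acetyl-CoA through the mevalonate pathway. The genes of the pathway are switched on together by the membrane-bound transcription factor SREBP2 when sterols in the endoplasmic reticulum are low, and its escort protein SCAP is held back by INSIG proteins when sterols are high. In the fetal lung the alveolar type 2 cell, which makes surfactant lipids, is known for active lipid synthesis. Positions are on GRCm38 in the GENCODE M21 annotation. Hmgcs1 (chr13:119690379-119708260, plus strand) encodes the synthase that joins acetyl-CoA and acetoacetyl-CoA to HMG-CoA, at the entry of the mevalonate pathway. Idi1 (chr13:8885501-8892451, plus strand) encodes the isomerase that turns isopentenyl into dimethylallyl diphosphate. Fdps (chr3:89093588-89101959, minus strand) encodes farnesyl diphosphate synthase, whose product also feeds protein prenylation. Fdft1 (chr14:63145150-63179578, minus strand) encodes squalene synthase, the first step committed to sterols. Sqle (chr15:59315077-59331192, plus strand) encodes squalene epoxidase, an oxygen-using step and a second control point of the pathway. Lss (chr10:76531588-76557138, plus strand) encodes lanosterol synthase, which closes the sterol rings. Cyp51 (chr5:4081145-4104746, minus strand) encodes the demethylase that acts on lanosterol. Insig1 (chr5:28071363-28078662, plus strand) encodes no enzyme but the sterol-sensing anchor of SCAP, and is itself an SREBP target. Of the 60-base stretches in the last 300 bases of their coding transcripts, 344 of 780 for Idi1 and 603 of 756 for Fdps also occur in transcripts of other genes, all with Gm-numbered names, so counts of these 2 genes are less certain. The other 6 genes shared none.

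Promoter windows of 250 bases before to 50 after the start were on hand for Hmgcs1, Idi1, Lss, Cyp51 and Insig1, from RefSeq on GRCm38.p6. Sqle, Fdps and Fdft1 had none. The sterol regulatory element TCACNCCAC, searched on both strands, was found in 1.24% of 32851 promoter windows, and among the 5 windows in Hmgcs1 alone, as TCACCCCAC beginning 137 bases before the start. With 1 mismatch allowed, it was found in 24.2% of all windows and in 3 of the 5. CCAAT, the box bound by NF-Y, was found on either strand in 37.4% of all windows and in all 5, and the Sp1 box GGGCGG in 35.7% and in all 5. The letters searched do not overlap with each other. The upstream stretches of Hmgcs1 and Insig1 are shown because 1 holds the full element and the other, that of the sterol sensor, does not. Capitals mark the sterol regulatory element and CCAAT or its reverse complement ATTGG, and each stretch ends where the annotated gene or the window's start site begins. That of Hmgcs1 lies at chr13:119690101-119690350 and that of Insig1 at chr5:28071162-28071362, both on the plus strand.
Hmgcs1: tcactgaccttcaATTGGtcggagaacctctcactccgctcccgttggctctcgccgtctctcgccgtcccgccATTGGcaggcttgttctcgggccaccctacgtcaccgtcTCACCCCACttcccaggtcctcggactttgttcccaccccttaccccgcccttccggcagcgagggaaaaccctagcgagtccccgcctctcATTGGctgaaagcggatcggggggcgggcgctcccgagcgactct
Insig1: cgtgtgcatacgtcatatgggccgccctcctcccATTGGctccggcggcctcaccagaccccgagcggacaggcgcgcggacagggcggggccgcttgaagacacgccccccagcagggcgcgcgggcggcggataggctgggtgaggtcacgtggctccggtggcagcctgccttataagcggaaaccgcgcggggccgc

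In endothelial cells the 8 genes together stood, in time order, at 371, 353, 223 and 288 CPM. The lowest value was that of E18.5, and the P8 value lay between those of E18.5 and E15.5. The genes did not all share this course. Hmgcs1, at the entry of the pathway, stood in the same order at 65.7 CPM (interval 52.3 to 81.6), 74.2 CPM (interval 72.4 to 76.0), 58.8 CPM (interval 56.8 to 60.8) and 72.5 CPM (interval 70.3 to 74.6). Its E18.5 interval lay below those of E15.5 and P8, which met each other. Idi1 stood at 42.5, 63.5, 30.4 and 50.6 CPM in time order, with its highest level at E15.5 and its lowest at E18.5. Fdps stood at 86.6, 76.5, 60.02 and 76.7 CPM, and only its E18.5 level was set apart from the others by the intervals.

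Fdft1 and Sqle, the first enzymes of the sterol branch, took another course. Fdft1 stood at 48.1, 39.4, 23.9 and 23.1 CPM in time order. Sqle stood at 51.3, 36.1, 15.04 and 16.03 CPM. For both, the levels at E18.5 and P8 did not differ beyond counting error, with log2 ratios of P8 over E18.5 of -0.04 (-0.15 to 0.06) and 0.09 (-0.04 to 0.22), and both lay below E15.5. Lss, low throughout, stood at 9.62, 2.86, 1.09 and 0.751 CPM, which was 12 UMIs in all at E13.5. Cyp51 stood at 47.3, 37.9, 19.4 and 26.3 CPM and Insig1 at 20.0, 22.8, 14.8 and 21.7 CPM. From E13.5 to P8, Sqle was 3.13-fold lower, Fdft1 2.06-fold and Cyp51 1.79-fold, while the intervals for Hmgcs1, Idi1, Fdps and Insig1 all included no difference. These 3 of 7 genes tested were past 1.5-fold lower, where 20% of all genes were. The E13.5 endothelial class rested on 173 cells, with the highest mesenchymal marker level of the 4 classes, and the part of these markers in its values was not tested.

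**Figure D1:**
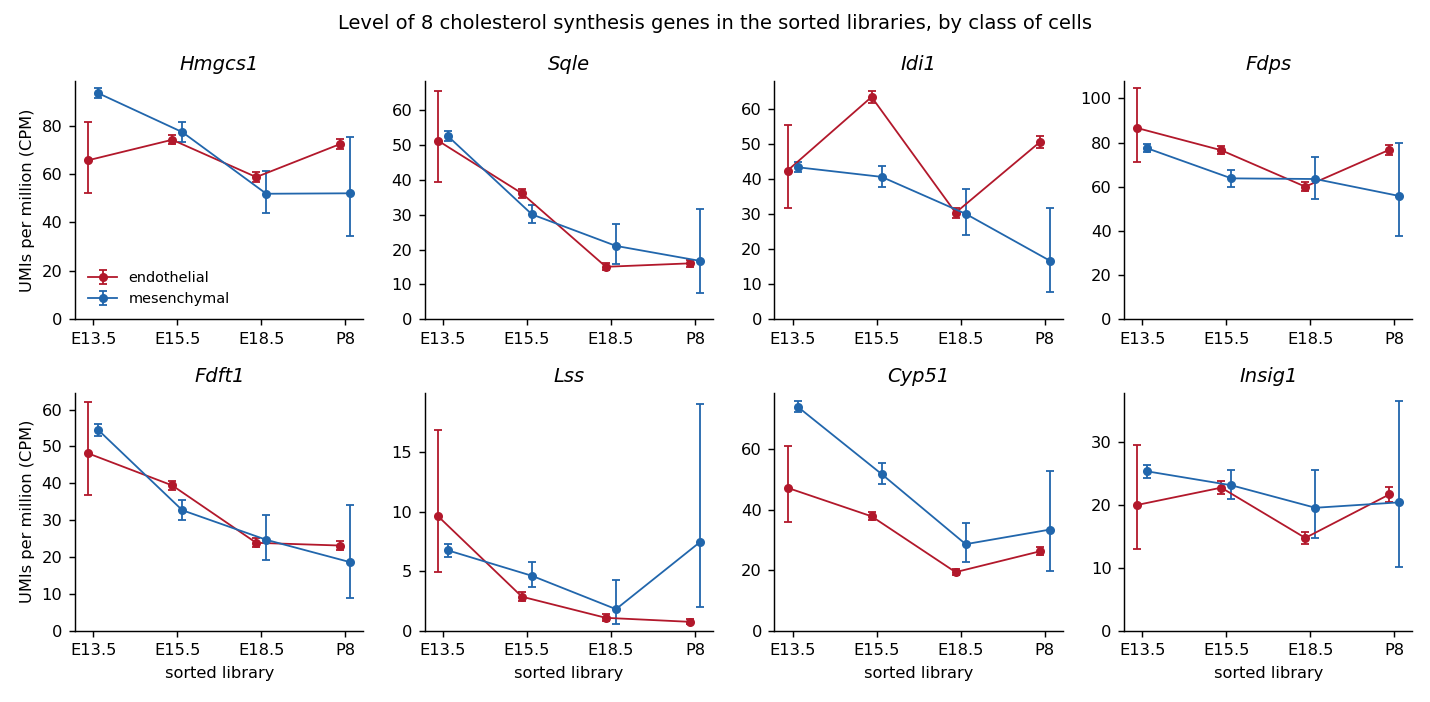
Level of each gene in CPM (y axis) in the 4 sorted libraries (x axis), in endothelial cells (red) and mesenchymal cells (blue). Points are 1 library each and bars are 95% Poisson limits. In endothelial cells Sqle and Fdft1 stay low from E18.5 to P8, whereas Idi1 is higher again at P8.

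From E13.5 to E15.5 the endothelial sum differed by a log2 ratio of -0.07 (-0.20 to 0.06), which includes no difference. No gene was past 1.5-fold in either direction, where 7.92% of all genes were higher and 12.1% lower. Idi1 was nearest to it on the higher side at 0.57 (0.19 to 1.00), and Sqle was lower at -0.50 (-0.86 to -0.13).

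Among the endothelial steps, that from E15.5 to E18.5 stood out for its uniform direction, which mesenchymal cells of the same libraries shared. All 8 genes were lower at E18.5 in endothelial cells, and 5 of the 7 tested were past 1.5-fold lower, where 10.6% of all genes were and the median gene was higher by 0.18 on the log2 scale. After scaling by size factors, which takes 0.16 as the zero of this comparison, 15.9% of all genes were past that fold lower and 14.8% higher, in place of 10.6% and 21.6%, and the same number of the 7 genes was past it. Sqle showed the widest difference at -1.24 (-1.37 to -1.16), which is 2.36-fold. Idi1 was lower by 2.07-fold and Cyp51 by 1.93-fold. Fdft1 and Insig1 were lower by 1.64-fold and 1.52-fold. Hmgcs1 and Fdps were lower by 1.26-fold and 1.27-fold, short of the threshold.

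The same direction was found for all 8 genes in every endothelial gate examined. In cycling cells, with at least 2 UMIs of the mitotic genes Mki67 plus Top2a, the summed log2 ratio was -0.72 (-0.80 to -0.64), and in cells with none it was -0.63 (-0.66 to -0.60). It was -0.48 (-0.53 to -0.45) among non-cycling cells with at least 3 UMIs of the arterial connexins Gja4 plus Gja5, and -0.92 (-1.02 to -0.83) among those with none. Among non-cycling cells with at least 2 UMIs of Gpihbp1, a marker of general capillary endothelium that binds lipoprotein lipase, it was -0.96 (-1.02 to -0.90). The intervals of the connexin and Gpihbp1 gates did not meet, but a cell could pass both gates, so these are not separate populations. At E18.5 the gates held 4940 and 3526 of 8082 non-cycling cells and thus shared some. In the Gpihbp1 gate, Sqle was 3.48-fold lower and 6 of the 7 tested genes were past 1.5-fold, where 10.2% of all genes were, and in the connexin gate Sqle was 1.95-fold lower and 4 of 7 were past it, where 7.4% were. Beside this step, red-cell markers in the endothelial class stood at 549 CPM at E15.5 and 1234 CPM at E18.5, and the median depth was 8456 and 5656.5 UMIs per cell. Their part in the result was not tested. Without haemoglobin, mitochondrial and ribosomal protein UMIs in the total, the summed log2 ratio of all endothelial cells was -0.79 in place of -0.66.

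Between E18.5 and P8 the endothelial sum was higher by 0.36 (0.33 to 0.40), and 6 of the 8 genes were higher. Idi1 was 1.65-fold higher and the only gene of 7 tested past 1.5-fold, where 9.66% of all genes were. Insig1 was 1.45-fold higher, Cyp51 1.34-fold, Fdps 1.28-fold and Hmgcs1 1.23-fold. The Gpihbp1 gate showed a larger difference, with a sum of 0.59 (0.54 to 0.64) and Idi1, Cyp51 and Insig1 past the threshold, where 10.5% of genes were. In the connexin gate the sum was 0.26 (0.22 to 0.30). These gates shared many cells at P8, holding 5403 (Gpihbp1) and 5095 (connexin) of 7469 non-cycling cells.

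**Figure D2:**
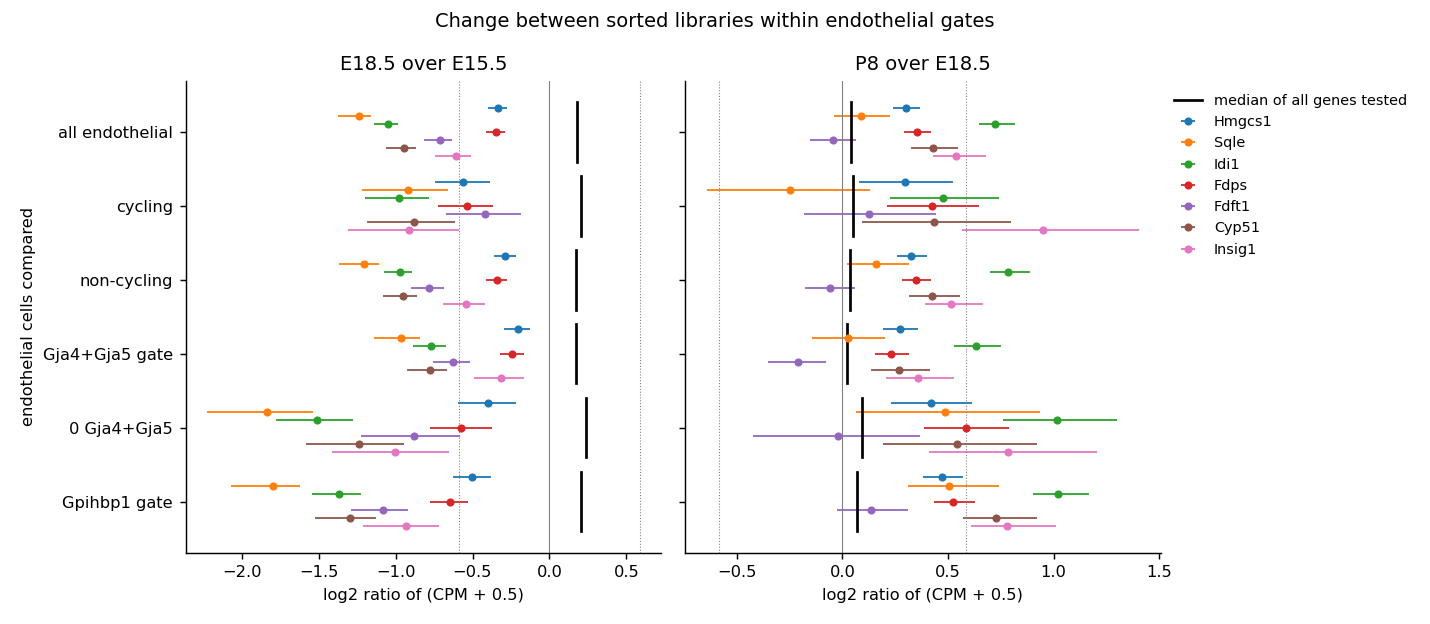
Log2 ratio of CPM plus 0.5 (x axis) for 7 genes between E18.5 and E15.5 (left) and between P8 and E18.5 (right), in all endothelial cells and in gated cells (y axis). Colored points are genes with counting intervals, black bars are the median of all genes tested, and dotted lines mark 1.5-fold. On the left every point lies below zero and below the black bar, and on the right most points lie above it.

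Other genes of sterol handling, in lists fixed by function, were set beside the members. Of 14 other cholesterol synthesis genes, 12 were tested in endothelial cells between E15.5 and E18.5. Of these, 5 were past 1.5-fold lower, namely Acat2, Mvd, Msmo1, Sc5d and Dhcr7, where 10.6% of all genes were, with none higher. After scaling by size factors 6 of the 12 were past it lower, where 15.9% of all genes were. Their median log2 ratio, over tested genes only, was -0.49, against -0.83 for all 8 genes, the untested Lss included. Acat2, which makes acetoacetyl-CoA, went from 43.3 to 15.8 CPM, and Msmo1, the methylsterol oxidase that follows Cyp51, from 64.2 to 36.8 CPM. Of 6 genes of SREBP control tested, Srebf1 and Insig2 were past 1.5-fold higher, at log2 ratios of 0.82 and 0.73, where 21.6% of all genes were. Srebf2, the gene of SREBP2, stood at -0.16. With size factors 1 of the 6 was past it higher, where 14.8% of all genes were. Among 6 genes of uptake and transfer, the HDL receptor gene Scarb1 was higher at 1.98. Of 6 genes of efflux and storage tested, Abcg1, Apoe, Nr1h2 and Mylip were past 1.5-fold higher, and Soat1, which esterifies cholesterol for storage, was past it lower at -1.31. With size factors 3 of these 6 were past it higher and 1 lower. Abcg1, a cholesterol exporter, went from 13.9 to 40.7 CPM. Fasn and Elovl6 of 5 fatty acid synthesis genes tested were past it lower, and neither non-sterol isoprenoid gene tested was past it.

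From E18.5 to P8, none of 11 other synthesis genes tested was past 1.5-fold in endothelial cells, where 9.66% of all genes were higher and 7.78% lower, and their median log2 ratio was 0.22. Scarb1, Stard4 and Npc1 were lower at -0.75, -0.77 and -0.74, as was Mylip at -1.49. The uptake and transfer list did not move in 1 direction. After scaling by size factors 3 of its 6 tested genes were past 1.5-fold lower and 1 higher, where 8.8% and 8.45% of all genes were. Ggps1, which extends farnesyl diphosphate for prenylation, was higher at 0.62, and Scd2 lower at -1.23.

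In mesenchymal cells the sum stood in time order at 428, 324, 241 and 221 CPM, each lower than the one before. The last 2 values rest on 283 and 68 cells, and their difference, -0.12 (-0.42 to 0.16), includes none. Unlike in endothelial cells, the first step held a decline. All 8 genes were lower at E15.5 than at E13.5, Idi1 not so after scaling by size factors, by 1.73-fold for Sqle and 1.66-fold for Fdft1, the 2 of 7 tested that were past 1.5-fold, where 14.3% of all genes were. Cyp51 went from 74.1 CPM (interval 72.4 to 75.9) to 51.8 CPM (interval 48.5 to 55.4), and Idi1 from 43.4 CPM (interval 42.1 to 44.8) to 40.7 CPM (interval 37.7 to 43.8), where the interval of the ratio, -0.09 (-0.21 to 0.02), includes none. In the same step 8 of 13 other synthesis genes tested were past 1.5-fold lower, among them Acat2 at -1.01. After scaling by size factors 6 of the 13 were past it lower, where 9.8% of all genes were. Srebf2 was lower at -0.70, and Insig2 and Apoe were higher at 1.14 and 1.85. Mesenchymal marker levels differed along with this, at 4658 and 11276 CPM, and the mesenchymal cells of a sort set for CD31-positive cells may not stand for the whole mesenchyme. From E15.5 to E18.5 the sum was lower, at a log2 ratio of -0.43 (-0.54 to -0.31), and so were all 8 genes, as in endothelial cells. Cyp51 alone of 7 was past the threshold, where 7.91% of all genes were. After scaling by size factors 2 of the 7 were past it lower, where 8.79% of all genes were.

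Set against endothelial cells of the same library, mesenchymal cells held more Cyp51 in all 6 libraries, by log2 ratios of 0.34 to 0.88, and the counting interval lay above zero in 5. In the library labelled null Cyp51 stood at 20.1 CPM (interval 18.7 to 21.5) in mesenchymal and 10.6 CPM (interval 9.41 to 12.0) in endothelial cells, and in the library labelled control at 16.7 CPM (interval 15.4 to 18.2) and 9.43 CPM (interval 7.91 to 11.2). Idi1 went the other way in 5 of 6 libraries, E18.5 turning after scaling by size factors, with the interval below zero in 4. It was 2.13-fold lower in mesenchymal cells of the library labelled null and 2.55-fold lower in those of the library labelled control. Sqle and Hmgcs1 had no single direction, being higher in mesenchymal cells in 3 and 2 of 6 libraries. Of the genes tested, 3 of 7 in the library labelled null (Sqle, Idi1 and Fdps) and 2 of 5 in the library labelled control (Idi1 and Fdps) were past 1.5-fold lower in mesenchymal cells, where 22.7% and 22.6% of all genes were, and Cyp51 alone was past it higher in both, where 19.7% and 20.5% were.

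Endothelial cells were then split within each library by 3 vessel markers, cycling cells left out. At E15.5, cells of the connexin gate held less of the 8 genes than cells with none, by a summed log2 ratio of -0.15 (-0.22 to -0.08), and at E18.5 they held more, at 0.28 (0.21 to 0.36). At P8 the 2 groups did not differ beyond counting error, at -0.02 (-0.10 to 0.07), nor did they in the library labelled null, at 0.01 (-0.10 to 0.13), or labelled control, at -0.08 (-0.26 to 0.09). Fdft1 was higher in the connexin gate in all 5 libraries with both groups, at log2 ratios of 0.11 to 0.52, and Hmgcs1 lower in all 5, at -0.28 to -0.03. No tested gene was past 1.5-fold in this gate, where 8.2% of all genes were higher and 7.6% lower at E18.5. Red-cell markers changed direction between the same ages, opposite to the sum. Their level was 368 against 96.2 CPM inside and outside the gate at E15.5 and 939 against 2353 CPM at E18.5. They stood at 967 against 1572 CPM at P8, 67.3 against 142 CPM in the library labelled null and 76.3 against 32.6 CPM in that labelled control. The summed level of 6 endothelial markers stood at 4975 against 4325 CPM at E15.5 and 6961 against 10044 CPM at E18.5. The part of these markers in the differences was not tested.

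The Gpihbp1 gate gave larger differences. Its cells held slightly more of the 8 genes at E15.5, at 0.13 (0.08 to 0.18), and less at E18.5, at -0.58 (-0.64 to -0.52), and at P8, at -0.35 (-0.41 to -0.29). The whole lungs gave -0.57 (-0.69 to -0.45) in the library labelled null and -0.75 (-0.94 to -0.56) in the library labelled control. At E18.5, 5 of 7 tested genes were past 1.5-fold lower in the gate, where 8.15% of all genes were, and at P8 1 of 7, where 6.91% were. In the library labelled null these were 4 of 7, where 10.9% of all genes were, and in the library labelled control 3 of 5, where 13.2% were. After scaling by size factors the 4 counts, in the same order, were 4, 2, 2 and 3. Sorted Gpihbp1-gated cells at E18.5 held Sqle at 10.6 CPM (interval 9.33 to 12.0), against 18.6 CPM (interval 16.7 to 20.6) in cells with no Gpihbp1, and Fdps at 50.4 against 74.8 CPM. Of 11 other synthesis genes tested there, Msmo1, Sc5d and Dhcr7 were past 1.5-fold lower and none higher, where 6.71% of all genes were, and Srebf2 was lower too. Red-cell markers moved with this gate at E18.5, at 2146 CPM in gated cells and 313 in the others, and epithelial markers against it, at 8.94 and 82.2 CPM. Their part in the difference was not tested. Gating on Car4, a marker of aerocyte capillary cells, gave summed log2 ratios of -0.23 (-0.32 to -0.14) and -0.20 (-0.26 to -0.15) in the last 2 sorted libraries, and 0.17 (-0.01 to 0.35) in the library labelled null. Gated cells were deeper than cells with none. The medians were 6673.5 against 5328.5 UMIs for Car4 at E18.5 and 9414 against 5048 at P8. For Gpihbp1 they were 5987.5 against 5150 at E18.5 and 5811 against 4788 at P8. The part of depth was not tested.

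**Figure D3:**
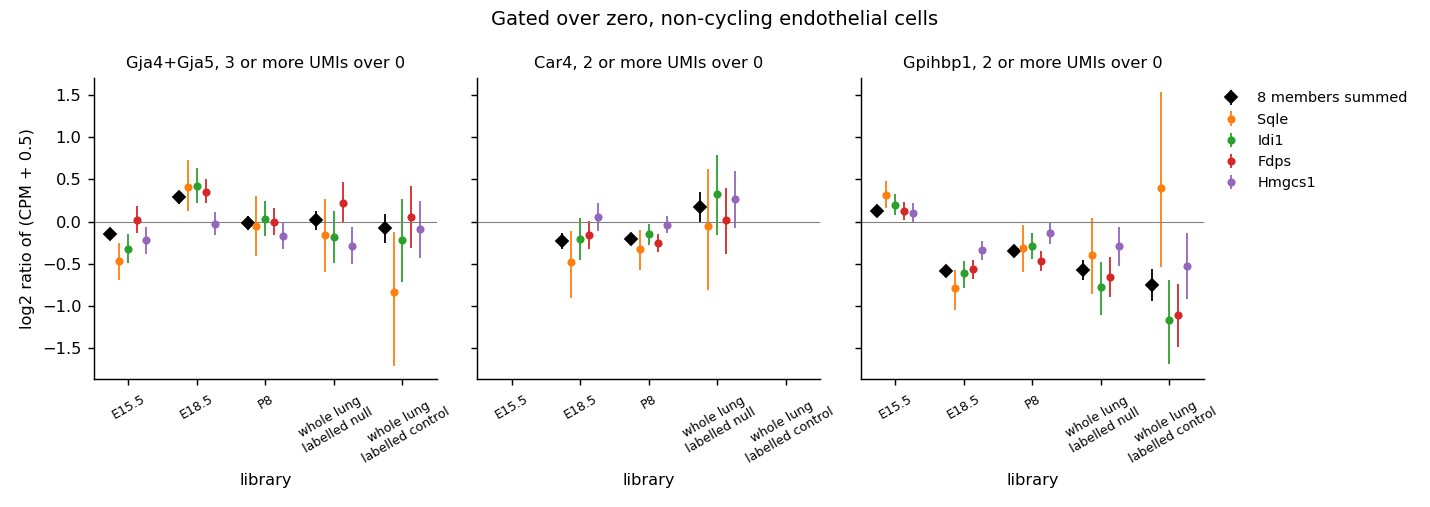
Log2 ratio of CPM plus 0.5 (y axis) of non-cycling endothelial cells inside a gate over those with no UMI of its genes, for gates on Gja4 plus Gja5 (left), Car4 (middle) and Gpihbp1 (right) in each library with 50 cells in both groups (x axis). Black diamonds are the 8 genes summed, colored points single genes, and bars counting intervals. The Gpihbp1 diamonds lie above zero at E15.5 and below it in the other 4 libraries.

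Cycling and non-cycling cells of the endothelial class were compared in 5 libraries. Cycling cells were deeper, at medians of 12565 against 7612 UMIs at E15.5 and 11442 against 5482 at P8. The part of depth in what follows was not tested. The summed log2 ratios of the last 3 sorted libraries, in time order, were 0.09 (0.05 to 0.12), -0.00075 (-0.09 to 0.08) and -0.03 (-0.10 to 0.04). They were 0.05 (-0.06 to 0.15) in the library labelled null and 0.18 (0.02 to 0.35) in the library labelled control, so that the interval lay above zero in 2 of 5. Single genes went in opposite directions. Sqle and Idi1 were higher in cycling endothelial cells in all 5 libraries with enough cells, with the interval above zero in 3 each, and Fdps was lower in all 5, with the interval below zero in 3. Fdps at E15.5 turned with size factors, and Idi1 at P8 without mitochondrial, ribosomal protein and haemoglobin UMIs. None of 7 tested genes was past 1.5-fold in the sorted endothelial cells, where 9.15%, 9.87% and 9.18% of all genes were higher in the same order and 8.59%, 7.98% and 4.24% lower. In the endothelial cells of the library labelled control, Sqle and Cyp51 of 6 tested were past it, where 11.3% of all genes were. In its mesenchymal cells, Idi1, Fdft1 and Insig1 were past it, at 1.65 (1.15 to 2.26), 1.01 (0.59 to 1.46) and 0.81 (0.19 to 1.44), where 11.9% of all genes were, but in the library labelled null the same genes stood at 0.45 (-0.08 to 0.98), 0.11 (-0.33 to 0.53) and 0.23 (-0.34 to 0.76).

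Among the 4 classes of the whole lungs, epithelial cells, with at least 2 UMIs of Epcam plus Cdh1, held the most of the 8 genes. Their sum was 298 CPM in the library labelled null and 263 in the library labelled control. Endothelial cells held 175 and 135, immune cells 156 and 127, and mesenchymal cells 132 and 98.2 CPM. The order was the same in both libraries. In that labelled control, however, the intervals of endothelial (129 to 141) and immune cells (120 to 134) met. After scaling by size factors immune cells stood above endothelial cells in the library labelled control. Over endothelial cells, all 8 genes were higher in epithelial cells of both. Insig1 stood at 43.6 CPM (interval 39.1 to 48.5) and 44.2 CPM (interval 40.3 to 48.4) in epithelial cells of the libraries labelled null and control, against 11.1 and 8.94 CPM in endothelial cells. Sqle stood at 41.0 CPM (interval 36.6 to 45.7) and 31.8 CPM (interval 28.5 to 35.4), against 13.6 and 10.6 CPM. Lss stood at 7.61 and 7.33 against 1.24 and 0.970 CPM. Cyp51 differed least, at log2 ratios of 0.24 (-0.09 to 0.59) and 0.27 (-0.08 to 0.65). In the library labelled null 3 of 7 tested genes were past 1.5-fold higher, where 19.7% of all genes were, and in the library labelled control 5 of 7, where 19.3% were. The median log2 ratio of all genes was -0.35 and -0.35. After scaling by size factors, 26.8% and 26% of all genes were past that fold higher and 24% and 24.1% lower, in place of 37.5% and 37.4%, and 6 and 7 of the 7 were past it.

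Other genes of sterol handling were set beside this comparison too. Of 14 other synthesis genes, 10 were tested in the library labelled null and 8 in the library labelled control. In the first, 2 were past 1.5-fold higher in epithelial than endothelial cells, among them Mvd, and in the second none, and Lbr was lower in both. The median log2 ratio of those tested was 0.22 and -0.12, against -0.35 for all genes in both libraries. For all 8 genes, the untested Lss included, it was 0.55 and 0.71. After scaling by size factors, 5 and 0 of the other synthesis genes were past 1.5-fold higher, at medians of 0.55 and 0.21. Scarb1 was lower at -3.85 and -4.23. Of 7 fatty acid synthesis genes tested, Acaca, Fasn, Scd1, Scd2 and Me1 were past it higher and Fads1 lower in both libraries, Fasn at 3.51 and 3.56. After scaling by size factors, 5 of the 7 were past it higher and 0 lower in the library labelled null. In the library labelled control 6 were higher and 1 lower.

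Immune cells, with at least 2 UMIs of Ptprc, Laptm5 and Coro1a together, had a mixed pattern. Insig1 was 2.65-fold and 2.92-fold higher than in endothelial cells of the libraries labelled null and control, and Cyp51 was higher at 0.41 (0.13 to 0.73) and 0.47 (0.13 to 0.85). Fdps was 1.99-fold and 2.14-fold lower, and Hmgcs1, Sqle and Fdft1 were lower in both libraries with intervals below zero. In each library 1 tested gene was past 1.5-fold higher and 1 lower, where 23.9% and 22% of all genes were higher and 31.2% and 33.6% lower.

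Among the named clusters of the whole lungs, the alveolar type 2-like (AT2-like) cells held the most of the 8 genes. These cells, led by Lyz1, Sftpa1, Sftpc and Slc34a2, numbered 172 in the library labelled null and 287 in the library labelled control, the order of every pair of values that follows. They held the 8 genes at 414 and 371 CPM, above every other named cluster in the same library. The AT1-like cluster, led by Ager and Aqp5, held 171 and 141 CPM, the secretory-like cluster 227 and 189, and the ciliated-like cluster 242 and 221. The secretory-like and ciliated-like values also lay above those of the endothelial class, 175 and 135 CPM, and the AT1-like values near them. Hmgcs1 stood at 109 and 85.2 CPM in AT2-like cells and at 36.8 and 29.2 CPM in AT1-like cells, a log2 ratio of 1.56 (1.17 to 1.997) and 1.53 (1.19 to 1.91). Insig1 stood at 74.7 and 82.5 CPM in AT2-like and 25.2 and 17.1 CPM in AT1-like cells. All 8 genes were higher in AT2-like than AT1-like cells in both libraries, and of the genes tested 7 and 6 of 7 were past 1.5-fold, where 12.5% and 7.87% of all genes were. Srebf1 and Srebf2 were past it in both, Srebf2 at 0.82 and 1.42, as were Npc1, Npc2, Soat1 and Abcg1 of the uptake, efflux and storage lists and Acly, Acaca, Fasn, Scd1 and Me1 of the fatty acid list. Of 10 other synthesis genes tested in each library, 5 and 3 were past it. The AT2-like cells also carried mesenchymal markers at 945 and 612 CPM and immune markers at 290 and 268 CPM. Clusters, unlike classes, keep cells of 2 gates, and the source of these markers was not tested.

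Sqle broke this order. It was highest in the ciliated-like cluster, led by Rsph1, Dynlrb2 and Tmem212, at 85.3 CPM (interval 74.9 to 96.7) in the library labelled null and 83.2 CPM (interval 73.3 to 94.1) in the library labelled control. AT2-like cells held 24.7 CPM (interval 19.8 to 30.5) and 19.9 CPM (interval 16.2 to 24.2). Sqle was thus 3.41-fold and 4.10-fold higher in ciliated-like cells. Fdft1 and Cyp51, enzymes of the sterol branch before and after Sqle, were lower there. Fdft1, the step before, stood at 13.3 and 18.9 CPM in ciliated-like and 48.8 and 43.0 CPM in AT2-like cells, and Cyp51 at 3.85 and 3.26 CPM and 21.6 and 16.7 CPM. Of 7 tested genes in the library labelled null, 6 were past 1.5-fold higher in AT2-like than ciliated-like cells, where 15.1% of all genes were, and Sqle alone past it lower, where 40.9% were. In the library labelled control these were 5 of 6 and Sqle alone, where 15.2% and 39.7% were. Of the other synthesis genes, Ebp, an isomerase late in the pathway, was also past it lower in AT2-like cells. It stood at -2.98 and -2.63, and Insig2, of the SREBP control list, at -1.31 and -0.74. After scaling by size factors, 3 of 10 other synthesis genes tested in the library labelled null were past it higher and 2 lower. Of all genes 21.3% and 32.3% were. In the library labelled control 5 of 11 were higher and 2 lower, where 20.9% and 32% of all genes were. No SREBP control gene was past it lower there after scaling. The cluster held 100 and 101 cells at a median of 24131.5 and 26190.0 UMIs, and 54.2% of its cells passed the cycling gate of Mki67 plus Top2a. Within the epithelial class Sqle was higher in cells of that gate at 0.85 (0.50 to 1.20) and 1.54 (1.24 to 1.89), while Insig1 was lower at -1.22 (-1.78 to -0.73) and -1.10 (-1.55 to -0.71). The gate held 54 and 76 epithelial cells there, and ciliated-like cells were not taken out of it. These values may thus restate those of the cluster.

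The stromal clusters differed among themselves by gene. The lowest sum in each library was that of alveolar fibroblast-like cells, 97.7 and 61.5 CPM. Adventitial fibroblast-like cells, among whose leading genes was the mesothelial marker Upk3b, held 109 and 88.8 CPM. Pericyte-like cells held 198 and 131, and smooth muscle-like cells 157 and 108 CPM. Smooth muscle-like cells held Cyp51 at levels not set apart from those of AT2-like cells by the intervals, at 22.4 and 14.4 CPM, with log2 ratios of AT2-like over them of -0.05 (-0.51 to 0.41) and 0.21 (-0.44 to 0.92). They held Fdft1 at 40.7 and 28.2 CPM, against 9.15 and 6.28 CPM in alveolar fibroblast-like cells. Arterial endothelial-like cells held 212 and 149 CPM of the sum. The immune cluster led by S100a9, Ngp and Retnlg held 164 and 127 CPM and macrophage-like cells 105 and 100.4, with Insig1 at 33.3 and 25.0 CPM and 14.9 and 19.0 CPM. Macrophage-like cells also carried mesenchymal markers at 3362 and 2973 CPM, beside immune markers at 4384 and 4468 CPM. The source of these mesenchymal markers was not tested.

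**Figure D4:**
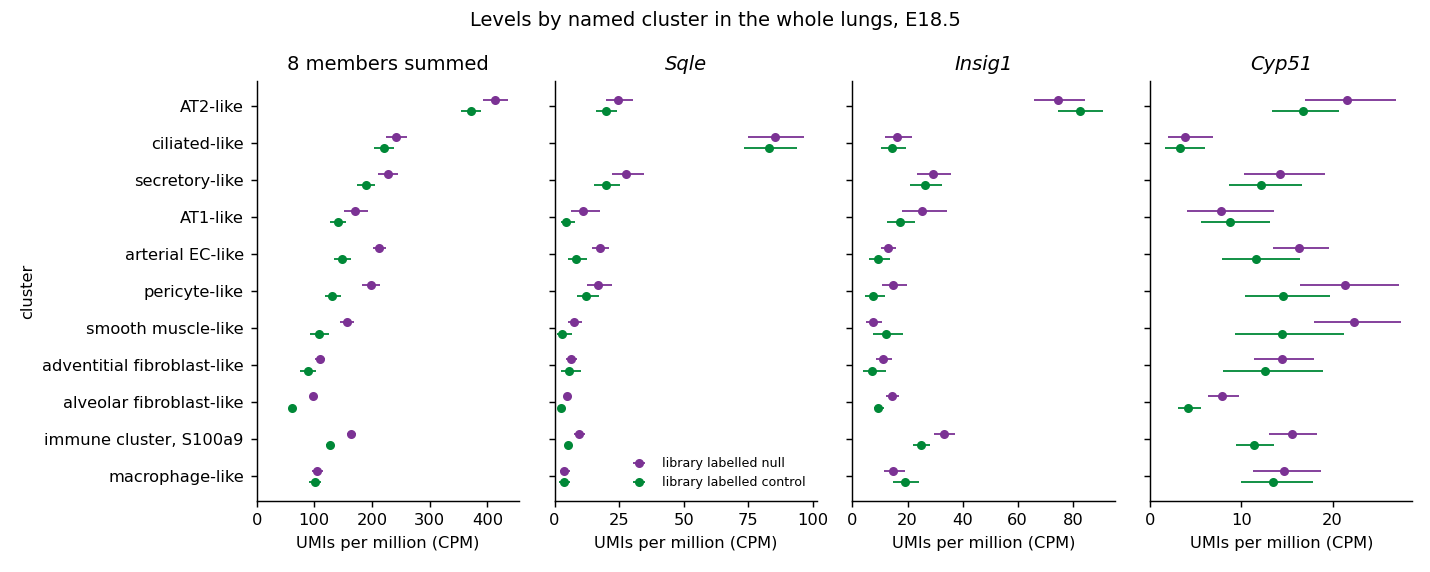
Level in CPM (x axis) of the 8 genes summed, Sqle, Insig1 and Cyp51 in 11 clusters of the whole lungs (y axis), in the library labelled null (purple) and the library labelled control (green). Bars are 95% Poisson limits. AT2-like cells lead the sum and Insig1, ciliated-like cells lead Sqle at 85.3 and 83.2 CPM, and Cyp51 is spread over the clusters.

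Between the whole lungs, the library labelled null held more of the 8 genes in each class. The summed log2 ratio of labelled null over labelled control was 0.37 (0.30 to 0.45) in endothelial, 0.42 (0.36 to 0.49) in mesenchymal, 0.18 (0.10 to 0.26) in epithelial and 0.29 (0.18 to 0.40) in immune cells, while the median gene lay between -0.05 and 0.04. Since Cxcl12 contradicts both labels, this direction names libraries and not genotypes. Hmgcs1, Sqle, Idi1, Fdps, Fdft1 and Cyp51 were higher in the library labelled null in all 4 classes, Insig1 in 3 and Lss in 2. Fdps in mesenchymal cells, at 23.3 CPM (interval 21.8 to 24.8) and 13.9 CPM (interval 12.6 to 15.2), was the only tested gene past 1.5-fold in any class, where 1.41% of all genes were higher and 0.919% lower. In endothelial, epithelial and immune cells 1.16%, 1.66% and 2.02% of genes were past it higher and none of the 8. In endothelial cells Hmgcs1 stood at 47.7 CPM (interval 45.1 to 50.5) and 37.1 CPM (interval 34.0 to 40.4), and Fdps at 41.2 CPM (interval 38.8 to 43.8) and 29.7 CPM (interval 27.0 to 32.7).

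By cluster, the sum was higher in the library labelled null for all 11 named clusters with 50 cells in both, from 0.06 (-0.14 to 0.26) in macrophage-like to 0.67 in alveolar fibroblast-like cells. Pericyte-like cells had 3 of 7 tested genes past 1.5-fold, where 2.01% of all genes were, with Fdps at 1.21 (0.79 to 1.69). AT2-like cells had none of 8, where 3.09% were, and Insig1 there was at -0.14 (-0.37 to 0.08). The rest of the synthesis pathway had medians over the tested genes of 0.13, 0.17, 0.17 and 0.12 in the 4 classes. Those of all 8 genes, untested ones included, were 0.34, 0.41, 0.14 and 0.24. The rest thus moved less in endothelial, mesenchymal and immune cells, but not in epithelial cells. Among the genes past 1.5-fold were Msmo1 and Lipa, higher, and Npc1, lower, in epithelial cells, where 1.02% of all genes were lower, and Apoe, lower, in mesenchymal cells. The free RNA removed by the authors' adjustment differed between the libraries, at 18.5% of UMIs in that labelled null and 40.0% in that labelled control. With the adjusted values the summed log2 ratio was 0.59 in mesenchymal and -0.074 in epithelial cells. With 1 library each, lung, capture and genotype cannot be told apart.

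**Figure D5:**
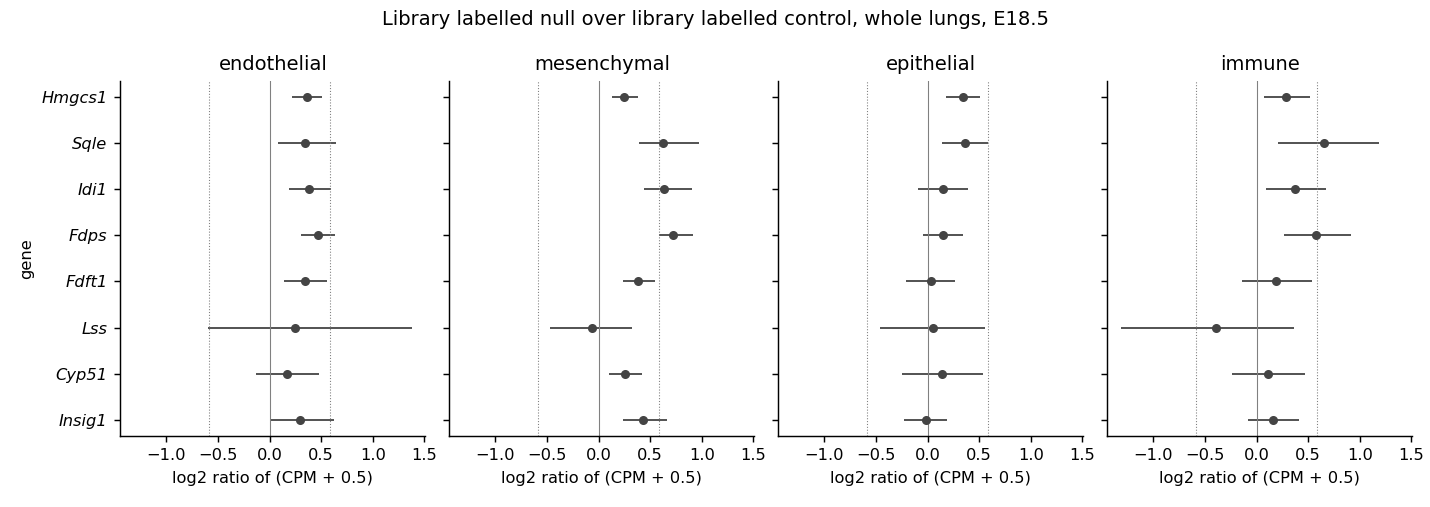
Log2 ratio of CPM plus 0.5 (x axis) of the library labelled null over the library labelled control for each gene (y axis), in 4 classes of whole-lung cells. Points are ratios of 2 libraries, bars counting intervals, and dotted lines 1.5-fold. Most points lie above zero and within the dotted lines, and Fdps in mesenchymal cells lies beyond.

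Endothelial cells at E18.5 were measured in 3 libraries. The sorted cells held the 8 genes at 223 CPM, above 175 in the library labelled null and 135 in that labelled control, by log2 ratios of 0.35 (0.30 to 0.40) and 0.72 (0.66 to 0.80). Against the library labelled null, Cyp51 alone of 7 tested was past 1.5-fold, at 0.84 (0.68 to 1.06), where 4.44% of all genes were. Against the library labelled control 5 of 7 were, where 6.27% of genes were, with Fdps at 1.00 (0.87 to 1.16) and Cyp51 at 1.00 (0.78 to 1.31). These comparisons are not like that between the whole lungs. The sort selected for the reporter and its cells were classed by 2 gates, whole-lung cells by 4 with a haemoglobin filter. Of non-cycling endothelial cells, the connexin gate held 4940 of 8082 in the sort and 1003 of 2040 in the library labelled null. In that labelled control it held 361 of 1366. The Gpihbp1 gate held 3526, 1375 and 1058 cells in the same order. The part of these differences in the result was not tested.

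Across the 16 populations formed by library and class, the genes followed each other to different degrees. As a description over populations that share libraries, Pearson's r of log2(CPM + 1) between a gene and the sum of the other 7 was 0.96 for Hmgcs1, 0.94 for Sqle, 0.86 for Fdps, 0.85 for Fdft1, 0.85 for Idi1, 0.61 for Cyp51, 0.45 for Insig1 and 0.41 for Lss. Hmgcs1 spanned 26.9 to 93.5 CPM, a range of 3.48-fold, and Sqle 4.57 to 52.5 CPM, or 11.5-fold. Both were lowest in mesenchymal cells of the library labelled control and highest in mesenchymal cells at E13.5. Of 8980 other genes, the 10 most like the sum were Polr3k (r of 0.90), Psmb6, Hddc2, Ubl4a, Pole3, Ndufab1, Prmt7, Rae1, Sae1 and Hirip3 (0.86). Other synthesis genes ranked close behind, with Nsdhl at rank 11 and Msmo1 at 16, at r of 0.86 and 0.85, whereas Mvd stood at rank 2845 and Ebp at 6723. Over the 6 endothelial populations alone the order differed. There the same 10 genes ranked from 167 (Sae1) to 1147 (Hirip3), Msmo1 ranked 1 (r of 0.997) and Nsdhl 753.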

How the data were processed

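Single-cell suspensions were captured with 10x Genomics 3′ chemistry. The authors deposited 1 matrix of counts per library, made with Cell Ranger on mm10, and for the whole lungs also expected counts adjusted for free RNA with SoupX. The submitters' processing notes name Cell Ranger 3.1 and Seurat 3.2.2. Cells with at least 700 detected genes and 0.5 to 10% mitochondrial UMIs were kept. In the whole lungs alone, cells with over 10% haemoglobin UMIs were left out of the classes. The sorted libraries had no such filter. Counts as deposited were summed over the cells of a class in Python 3.11.15 with NumPy 2.4.6, SciPy 1.17.1 and pandas 2.3.3. A cell had to pass exactly 1 class gate, and groups under 50 cells were not used. Depth per library is the total given with the results, and intervals cover counting error only, since UMIs of 1 library share its animals and capture. No test was run, because each condition was 1 library.

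Whole-lung cells were clustered together on Pearson residuals computed within each library (3000 variable genes without the sterol lists, 20 components, 20 neighbours, resolution 0.8) with scikit-learn 1.9.0 and igraph 0.11.9. A cluster was named after a marker list only with at least 2 of its markers among the 10 leading genes and at least 50% of its cells holding 3 marker UMIs, limits that were set after the clusters were seen. Clusters without a name are not reported. Doublets were kept in the main values and removed with Scrublet in scanpy 1.11.5 as an alternative. At E18.5 and P8 its automatic threshold marked 0 and 2 cells, and the cells with the highest scores (8.68% and 8.65%) were removed instead.

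The members and the lists were chosen with earlier results of these data known. Named genes were the 8 members, genes of 6 lists of sterol and fatty acid handling past 1.5-fold at a mean of 10 CPM or more, and the 10 genes most like the summed members. Values of some list genes are not reported here, although the counts over the lists include them. The comparison of time steps within endothelial gates and that of the sort with the library labelled null were added after the data were seen. Step sizes put into simulated counts were recovered for most genes when the scripts were checked on simulated data. Those counts held counting error alone, so the check says nothing of spread between animals or captures.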

Additional observations from a re-analysis of the deposited data

Results flagged for a closer look

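Log2 ratios that lay on opposite sides of zero at neighbouring ages, with both counting intervals off zero, are given here, and none of these differences was tested. In the connexin gate over cells with none, at E15.5 and E18.5, the sum stood at -0.15 and 0.28, Sqle at -0.46 and 0.40, Idi1 at -0.32 and 0.42, and Insig1 at -0.32 and 0.36. In the Gpihbp1 gate at the same ages, the sum stood at 0.13 and -0.58, Sqle at 0.31 and -0.78, Idi1 at 0.20 and -0.61, and Fdps at 0.12 and -0.57. The mesenchymal over endothelial sum was 0.20 at E13.5 and -0.12 at E15.5, and Sqle in that comparison was -0.26 at E15.5 and 0.47 at E18.5. Hmgcs1 in cycling over non-cycling endothelial cells was 0.083 at E15.5 and -0.19 at E18.5, and in mesenchymal cells 0.10 at E13.5 and -0.29 at E15.5.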

How the results depend on the processing

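Of 151 alternative values of the summed log2 ratios that lead the comparisons, 124 lay within the counting interval of the value reported and 150 kept its sign. The causes of the others were not tested. With cells of 2 gates kept, epithelial over endothelial was 0.66 (library labelled null) and 0.82 (labelled control), and labelled null over control in mesenchymal cells 0.33. With the mean of per-cell CPM, endothelial P8 over E18.5 was 0.42, epithelial over endothelial 0.87 and 1.09, and labelled null over control in endothelial cells 0.47. Without mitochondrial, ribosomal protein and haemoglobin UMIs, endothelial E18.5 over E15.5 was -0.79, P8 over E18.5 0.27, mesenchymal E15.5 over E13.5 -0.48, epithelial over endothelial 0.84 and 1.05, and sorted over labelled control 0.65. With size factors these were -0.82, 0.32, -0.29, and 1.11 and 1.30, and mesenchymal over endothelial at E15.5 was -0.028. Among cells with 0 cycling UMIs, endothelial E18.5 over E15.5 was -0.63 and epithelial over endothelial 0.87 and 1.05. With SoupX-adjusted values epithelial over endothelial was 0.86 and 1.25, labelled null over control 0.59 in mesenchymal and -0.074 in epithelial cells, and sorted over labelled control 0.64. Of 10521 alternative log2 ratios over all comparisons, 10296 kept their sign. Past 1.5-fold, 3 turned: Lss in cycling over non-cycling endothelial cells of the library labelled control with cells of 2 gates kept, 0.033, and labelled null over control in smooth muscle-like cells at resolution 0.4, Idi1 at -0.23 and Insig1 at 0.13. At that resolution no AT1-like cluster was named, so AT2-like over AT1-like has no value.

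Depth limits Lss, which stayed under 10 CPM in nearly every population, and classes of few cells, such as the 68 mesenchymal cells at P8. Without replicate libraries the spread between animals is unknown, so no difference given here is shown to exceed it. No paired analysis was possible because each condition was 1 library.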
